A study of Mus musculus with 7 samples.

Results

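Bone marrow progenitors that carried a RUNX1 mutation on top of HMGA2 overexpression (RUNX1mut/HMGA2-OE) were compared with progenitors that overexpressed HMGA2 alone (HMGA2-OE), across all genes that passed a level filter. The comparison rests on 3 of the series' 7 RNA sequencing libraries, 2 of RUNX1mut/HMGA2-OE (replicates 1 and 2) and 1 of HMGA2-OE, each from marrow of individual C57BL/6 mice. A gene was included when it had at least 1 TPM in 2 of these 3 libraries. TPM is a gene's share of all transcripts in a library, corrected for transcript length and scaled to a fixed total. This left 12226 of the 28987 genes listed. The cells, called HSCPs in the labels, were enriched with a CD117 selection kit, and the mutant clone was then sorted by flow cytometry. Every HSCPs library carried HMGA2-OE, and neither a control nor a RUNX1 mutation without HMGA2-OE is analysed here in these cells. The labels give no age of the mice, no form of the RUNX1 mutation, and no promoter or cell type that drives HMGA2. The other 4 libraries held Ly6G+ marrow cells, 1 library each of RUNX1mut/HMGA2-OE, HMGA2-OE, RUNX1mut and Control.

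RUNX1 is a transcription factor that binds DNA together with CBFB. It is needed for the first blood stem cells of the embryo and, in the adult, for megakaryocyte, lymphoid and granulocyte maturation. HMGA2 is a chromatin architectural protein whose RNA is held low by let-7 microRNAs, and loss of that control leads to its overexpression in some myeloid neoplasms. RUNX1 is recurrently mutated in myelodysplastic syndromes.

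The libraries were first checked against their labels. Kit, which encodes CD117, was at 155 and 134 TPM in RUNX1mut/HMGA2-OE, against 61.8 TPM in HMGA2-OE, and between 3.43 and 5.20 TPM in the 4 Ly6G+ libraries. The progenitor genes Cd34, Myb, Gata2, Mpo, Cd48 and Cd93 were each at 28.0 TPM or more in all 3 HSCPs libraries. Flt3 was lower, at 13.6 and 8.06 TPM in RUNX1mut/HMGA2-OE, against 8.59 TPM in HMGA2-OE. Cd3e and Cdh5, which mark T cells and endothelium, were at most 0.141 TPM. The listed genes summed to 922874 and 935711 TPM in RUNX1mut/HMGA2-OE and to 896820 TPM in HMGA2-OE, and 12420, 12449 and 12012 genes reached 1 TPM in the same order. Read depth is unknown, because the deposited values are not counts. The RUNX1mut/HMGA2-OE replicates lay within 2-fold of each other for 95.3% of the 12226 genes.

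At least 2-fold differences in both RUNX1mut/HMGA2-OE libraries were found for 784 genes. Of these, 504 were higher than in HMGA2-OE, which is 4.12% of the genes tested, and 280 were lower, which is 2.29%. Judged on replicate 2 alone the counts were 882 higher and 556 lower, and on replicate 1 alone 684 and 450. Without genes that have an annotated transcript of 300 to 500 nt they were 292 and 153. Such a transcript is annotated for 46.4% of all genes tested, 42.1% of the higher genes and 45.4% of the lower genes. The filter treats the sides unequally. It admitted 516 genes that reached 1 TPM in both RUNX1mut/HMGA2-OE libraries but not in HMGA2-OE, and left out 302 that reached it in HMGA2-OE alone, 21 of them at 5 TPM or more there. Without it the counts were 497 higher and 421 lower. A difference of at least 4-fold in both libraries was reached by 108 higher and 38 lower genes. The median log2 difference over all genes was -0.01, with 5981 genes above 0 and 6245 below. Shares of list members further on are to be read against these. Over all genes about as many lay on either side, and 4.12% and 2.29% passed 2-fold. Single lists can lean to 1 side by small differences, as those without any 2-fold member show further on. The share 2-fold higher in both was 6.06% among genes averaging up to 3 TPM and 2.03% among genes above 100 TPM.

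In limma, with Benjamini-Hochberg adjustment, 0 of 12226 genes passed (0%), and the smallest adjusted p was 0.109. At an unadjusted p under 0.05 there were 1031 higher genes (8.43%) and 848 lower genes (6.94%), 1879 in all against 611 that chance would give. With 1 degree of freedom left, only the gap between the mutant replicates measured a gene's own spread, and HMGA2-OE, a single library, was taken to vary as they do. The fit also drew each gene's variance toward the trend over all genes, with 2.66 prior degrees of freedom beside that 1. The standard errors given below rest on both, and more on the trend than on the replicates. An exact permutation test of 2 libraries against 1 cannot go below p = 0.333. The values that follow therefore describe these 3 libraries. A log2 difference is given on the scale of log2(scaled TPM + 1) with the standard error (SE) of the fit, and it understates differences of genes at low TPM. Each library is bulk RNA, so fewer cells of a type and less RNA per cell cannot be told apart.

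**Figure D1:**
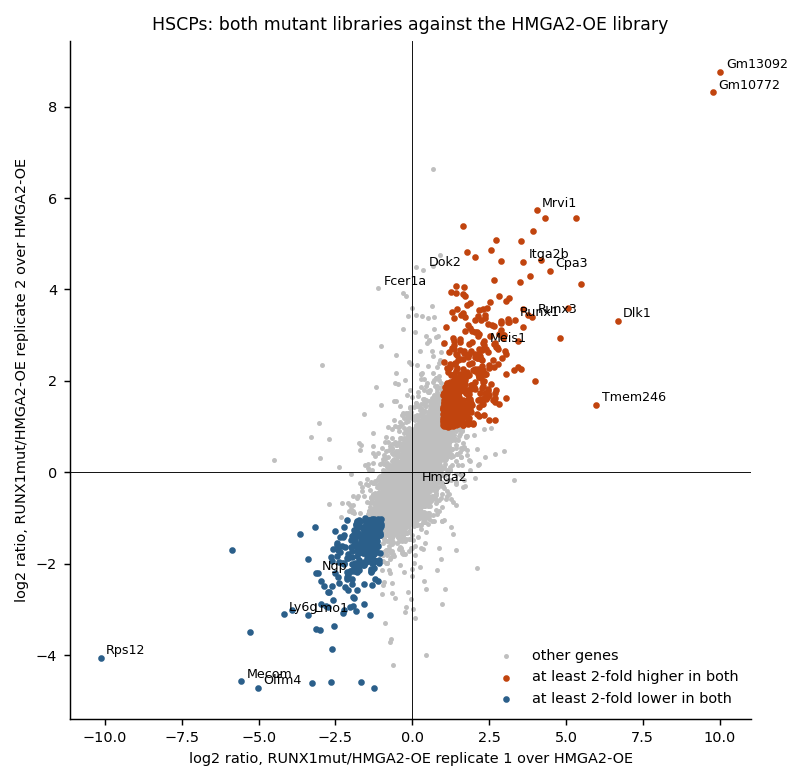
Each point is 1 of 12226 genes, placed by its log2 ratio to the HMGA2-OE library in RUNX1mut/HMGA2-OE replicate 1 (x axis) and replicate 2 (y axis). The 504 genes at least 2-fold higher in both replicates are red, the 280 at least 2-fold lower in both are blue, and Fcer1a, Dok2 and Tmem246 lie far from the diagonal. The 2 points at the upper right, Gm13092 and Gm10772, are listed at 0 in HMGA2-OE.

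Runx1 itself was among the genes furthest from HMGA2-OE. It was at 219 and 225 TPM in RUNX1mut/HMGA2-OE, against 18.9 TPM in HMGA2-OE, a log2 difference of 3.34 ± 0.12, with limma adjusted p = 0.109. The deposited values do not separate endogenous from mutant or introduced transcripts. Its relatives stood on the same side. Runx3 was at 338 and 245 TPM in RUNX1mut/HMGA2-OE, against 19.8 TPM in HMGA2-OE (3.65 ± 0.25), and Runx2 was at 24.5 and 23.2 TPM in RUNX1mut/HMGA2-OE, against 8.49 TPM in HMGA2-OE (1.24 ± 0.18). Both replicates were above HMGA2-OE for all 3 RUNX genes, and reads shared between them were not examined. Hmga2 was at 176 and 138 TPM in RUNX1mut/HMGA2-OE, against 147 TPM in HMGA2-OE, so the HMGA2-OE library lay between the replicates. Its difference of -0.07 ± 0.21 had adjusted p = 0.88 in limma, and it turned to 0.09 without scaling of the libraries and to 0.12 without replicate 2.

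Among protein-coding genes with at least 10 TPM in 1 of the 3 libraries and a gene name of their own, the 15 highest were taken by the smaller of both ratios. In this group several genes encode proteins of secretory granules and platelets. Cpa3, a carboxypeptidase of mast cell granules that is also made by early progenitors, was at 192 and 189 TPM in RUNX1mut/HMGA2-OE, against 6.97 TPM in HMGA2-OE (4.44 ± 0.13). Slc35d3, a transporter-like protein needed for platelet dense granules in mice, was at 36.8 and 90.9 TPM in RUNX1mut/HMGA2-OE, against 0.793 TPM in HMGA2-OE (4.94 ± 0.59). Gng11, a G protein gamma subunit, was at 72.7 and 104 TPM in RUNX1mut/HMGA2-OE, against 2.75 TPM in HMGA2-OE (4.42 ± 0.26). Cpa3 had nearly equal values in both replicates, while Slc35d3 and Gng11 were higher in replicate 2. Itga2b, the platelet integrin alpha IIb, was at 313 and 639.6 TPM in RUNX1mut/HMGA2-OE, against 22.5 TPM in HMGA2-OE, and Treml1, a receptor stored in platelet granules, was at 102 and 299 TPM in RUNX1mut/HMGA2-OE, against 7.03 TPM in HMGA2-OE. Esam, an adhesion molecule of stem cells, platelets and endothelium, was at 31.4 and 51.4 TPM in RUNX1mut/HMGA2-OE, against 1.68 TPM in HMGA2-OE. Each of these genes was lowest in HMGA2-OE.

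The other genes of that group belong to no blood lineage list. Mrvi1, which encodes a substrate of cyclic GMP-dependent kinase, was at 36.8 and 123 TPM in RUNX1mut/HMGA2-OE, against 1.15 TPM in HMGA2-OE (4.89 ± 0.78). Gchfr, a feedback regulator of GTP cyclohydrolase, was at 19.8 and 52.5 TPM in RUNX1mut/HMGA2-OE, against 0.296 TPM in HMGA2-OE (4.61 ± 0.64). Mdga1, a membrane protein with immunoglobulin domains known from neurons, was at 75.98 and 107 TPM in RUNX1mut/HMGA2-OE, against 3.99 TPM in HMGA2-OE (4.05 ± 0.26). The smaller of both log2 ratios was 4.04 for Mrvi1, 3.94 for Gchfr and 3.82 for Mdga1. Pcdh7, a protocadherin, was at 16.5 and 27.5 TPM in RUNX1mut/HMGA2-OE, against 0.872 TPM in HMGA2-OE. The extracellular matrix gene Mamdc2 was at 16.9 and 19.02 TPM in RUNX1mut/HMGA2-OE, against 0.887 TPM in HMGA2-OE, and Otos, an inner ear protein, was at 27.9 and 32.4 TPM in RUNX1mut/HMGA2-OE, against 2.098 TPM in HMGA2-OE. Dlk1, an imprinted gene for a Notch-like membrane protein, was at 106 and 9.54 TPM in RUNX1mut/HMGA2-OE, against 0.0156 TPM in HMGA2-OE, and its replicates lay far apart.

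A few genes differed with little spread between replicates. Ctla2a, a cysteine protease inhibitor, was at 128 and 131 TPM in RUNX1mut/HMGA2-OE, against 16.6 TPM in HMGA2-OE (2.74 ± 0.13). Tespa1, an adaptor of T cell receptor signalling, was at 43.8 and 44.2 TPM in RUNX1mut/HMGA2-OE, against 4.33 TPM in HMGA2-OE (2.94 ± 0.16). Serpina3g, a protease inhibitor, was at 296 and 279 TPM in RUNX1mut/HMGA2-OE, against 68.3 TPM in HMGA2-OE (1.90 ± 0.13). In these 3 genes the replicates nearly coincided. The protease Capn2 was at 23.8 and 25.8 TPM in RUNX1mut/HMGA2-OE, against 2.01 TPM in HMGA2-OE (2.97 ± 0.20), and the nuclear protein gene Ptms was at 81.2 and 78.4 TPM in RUNX1mut/HMGA2-OE, against 14.1 TPM in HMGA2-OE (2.27 ± 0.14). The adjusted p in limma was 0.109 for each of the 5.

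**Figure D2:**
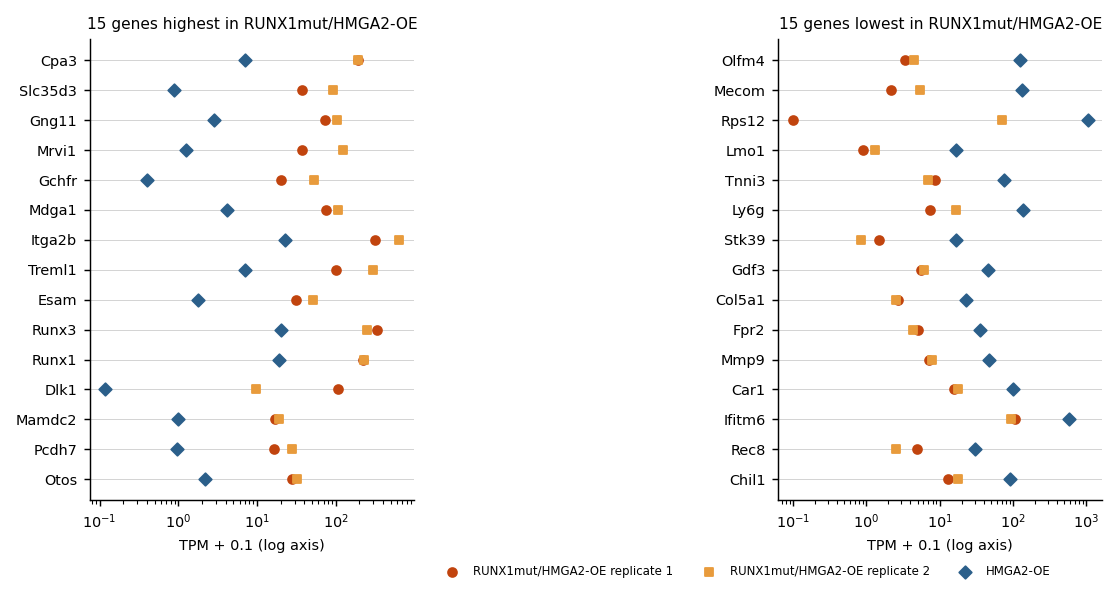
TPM + 0.1 on a log axis in RUNX1mut/HMGA2-OE replicate 1 (circles), replicate 2 (squares) and HMGA2-OE (diamonds) for the 15 highest (left) and 15 lowest (right) named genes. HMGA2-OE lies below both replicates for all 15 genes on the left and above both for all 15 on the right, and Rps12 has its replicates far apart.

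The RUNX motif was sought in the promoters of genes that stood the same way with the mutation here and in Ly6G+ cells, which are described further on. The letters searched were TGTGGT and TGCGGT on both strands, so the other strand reads ACCACA or ACCGCA, in the 250 bases before each start site in the RefSeq table of build GRCm38.p6. Shown are 4 such windows on the strand of the gene, with the motif in capitals. The first 3 belong to genes that were higher, and Ly6c2, a surface antigen gene of monocytes and neutrophil precursors, was lower. They lie at chr3:20242182-20242431 (minus strand) for Cpa3, chr4:135120395-135120644 (plus) for Runx3, chr12:104235897-104236146 (plus) for Serpina3g and chr15:75111972-75112221 (minus) for Ly6c2.
Cpa3: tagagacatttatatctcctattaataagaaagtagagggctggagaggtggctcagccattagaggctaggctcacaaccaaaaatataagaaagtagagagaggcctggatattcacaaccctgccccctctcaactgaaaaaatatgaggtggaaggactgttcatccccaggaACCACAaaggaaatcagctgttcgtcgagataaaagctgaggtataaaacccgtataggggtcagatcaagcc
Runx3: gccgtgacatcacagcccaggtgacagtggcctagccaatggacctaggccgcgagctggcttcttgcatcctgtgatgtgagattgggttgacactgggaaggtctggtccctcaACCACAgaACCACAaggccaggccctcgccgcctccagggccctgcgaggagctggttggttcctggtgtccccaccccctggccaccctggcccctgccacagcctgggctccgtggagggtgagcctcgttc
Serpina3g: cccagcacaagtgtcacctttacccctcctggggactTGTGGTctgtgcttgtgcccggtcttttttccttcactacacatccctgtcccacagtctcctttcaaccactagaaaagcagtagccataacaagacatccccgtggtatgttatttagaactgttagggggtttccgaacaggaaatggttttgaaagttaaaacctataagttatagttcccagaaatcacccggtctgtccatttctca
Ly6c2: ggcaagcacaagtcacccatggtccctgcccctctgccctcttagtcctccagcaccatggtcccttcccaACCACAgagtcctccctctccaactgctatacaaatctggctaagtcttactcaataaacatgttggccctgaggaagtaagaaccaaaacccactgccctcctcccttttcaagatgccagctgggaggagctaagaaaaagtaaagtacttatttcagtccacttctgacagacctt
The motif started 73 bases before the start site in Cpa3, 213 in Serpina3g and 179 in Ly6c2. Runx3 had it 134 and 126 bases before in the window shown, and its other window held none. It was in 18.6% of all 32851 windows of the table and in 18.0% of the windows of genes tested. The windows of genes 2-fold higher held it in 18.2%, and those of genes 2-fold lower in 24.2%. For the genes that stood the same way in HSCPs and Ly6G+ cells it was in 12 of 46 windows (26.1%), from 36 of 41 genes. Among the 12 are overlapping windows of Ly6c2 that hold the same motif. RefSeq windows were matched for 343 of the 504 higher and 205 of the 280 lower genes. A match is only a run of letters, and no binding was measured.

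Of the 784 genes, 631 were in none of the 62 gene lists used for description. Families were therefore looked up among them, and the 10 families that follow were put together after the values were seen, each with its relatives whether or not they differed. The families carry no test, and some of their members, such as F2rl2 and Tle1, are also in the lists.

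The nitric oxide and cyclic GMP pathway, which relaxes vessels and restrains platelets, had 13 of 20 genes tested. Of these, 8 were at least 2-fold higher in both replicates and 0 lower. Over all genes the shares were 4.12% and 2.29%, but a family looked up among genes past 2-fold cannot be weighed against them. The median log2 difference of the pathway's tested genes was 2.02. The subunits of soluble guanylate cyclase, the nitric oxide receptor, stood together: Gucy1a1 was at 6.78 and 13.9 TPM in RUNX1mut/HMGA2-OE, against 1.46 TPM in HMGA2-OE, and Gucy1b1 was at 13.4 and 19.1 TPM in RUNX1mut/HMGA2-OE, against 0.856 TPM in HMGA2-OE (3.10 ± 0.30). The cyclic GMP-dependent kinase Prkg1 was at 5.88 and 24.3 TPM in RUNX1mut/HMGA2-OE, against 1.08 TPM in HMGA2-OE, its substrate Mrvi1 is given above, and Pde5a, which breaks cyclic GMP down, was at 5.91 and 16.7 TPM in RUNX1mut/HMGA2-OE, against 1.503 TPM in HMGA2-OE. In each of these genes replicate 2 was the highest and HMGA2-OE the lowest. Npr1, a natriuretic peptide receptor that makes cyclic GMP at the membrane, was at 2.72 and 17.4 TPM in RUNX1mut/HMGA2-OE, against 0.165 TPM in HMGA2-OE. Ddah2, which clears an inhibitor of nitric oxide synthase, was at 34.8 and 25.3 TPM in RUNX1mut/HMGA2-OE, against 6.04 TPM in HMGA2-OE. The remaining members differed less: Vasp, an actin regulator and kinase substrate, was at 149 and 179 TPM in RUNX1mut/HMGA2-OE, against 168 TPM in HMGA2-OE, and Spr, a tetrahydrobiopterin enzyme, was at 34.9 and 40.99 TPM in RUNX1mut/HMGA2-OE, against 33.99 TPM in HMGA2-OE.

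Receptors for thrombin and nucleotides had 12 of 15 genes tested and 5 at least 2-fold higher. The thrombin receptor F2r was at 87.7 and 179 TPM in RUNX1mut/HMGA2-OE, against 24.3 TPM in HMGA2-OE, F2rl2 was at 27.5 and 58.1 TPM in RUNX1mut/HMGA2-OE, against 2.69 TPM in HMGA2-OE (3.35 ± 0.49) and F2rl3 was at 11.2 and 16.4 TPM in RUNX1mut/HMGA2-OE, against 2.48 TPM in HMGA2-OE. The ATP-gated channel P2rx1 was at 54.5 and 99.9 TPM in RUNX1mut/HMGA2-OE, against 15.02 TPM in HMGA2-OE, and the UDP-glucose receptor P2ry14 was at 18.8 and 16.6 TPM in RUNX1mut/HMGA2-OE, against 2.29 TPM in HMGA2-OE (2.38 ± 0.22). All 5 were lowest in HMGA2-OE. Among the rest, P2ry2 and P2ry6 were higher with only 1 replicate past 2-fold, and P2rx4, P2ry1, P2rx7, P2ry10 and P2ry13 differed by between -0.38 and 0.52 on the log2 scale.

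Cavins, which coat membrane caveolae, were higher in 3 of 3 members tested. Cavin1 was at 49.7 and 62.6 TPM in RUNX1mut/HMGA2-OE, against 16.1 TPM in HMGA2-OE, Cavin2 at 20.7 and 53.2 TPM in RUNX1mut/HMGA2-OE, against 3.85 TPM in HMGA2-OE and Cavin3 at 12.3 and 18.8 TPM in RUNX1mut/HMGA2-OE, against 1.54 TPM in HMGA2-OE. The caveolin Cav2 was at 5.98 and 3.69 TPM in RUNX1mut/HMGA2-OE, against 1.65 TPM in HMGA2-OE, with 1 replicate short of 2-fold. The calpain proteases split: Capn2 (given above), Capn5 at 41.4 and 61.3 TPM in RUNX1mut/HMGA2-OE, against 7.61 TPM in HMGA2-OE and Capn3 at 8.49 and 42.5 TPM in RUNX1mut/HMGA2-OE, against 1.73 TPM in HMGA2-OE were higher, whereas Capn1, Capn7, Capn10, Capn15 and the shared small subunit Capns1 lay between -0.23 and 0.25 on the log2 scale. The calpain inhibitor Cast was at 29.5 and 27.7 TPM in RUNX1mut/HMGA2-OE, against 37.5 TPM in HMGA2-OE.

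The protein kinase C family also split by member. The classical isoform Prkca was at 16.7 and 25.1 TPM in RUNX1mut/HMGA2-OE, against 1.59 TPM in HMGA2-OE (2.94 ± 0.31), and the T cell and platelet isoform Prkcq was at 17.7 and 48.9 TPM in RUNX1mut/HMGA2-OE, against 2.86 TPM in HMGA2-OE. Prkcb went the other way, at 6.67 and 6.91 TPM in RUNX1mut/HMGA2-OE, against 19.5 TPM in HMGA2-OE (-1.54 ± 0.20). Both replicates of Prkcb lay well below HMGA2-OE, and the 5 other isoforms tested differed by between -0.32 and 0.94 on the log2 scale. TLE corepressors, to which RUNX proteins bind, had 4 of 6 members higher, 2 of them at least 2-fold: Tle2 was at 19.7 and 27.8 TPM in RUNX1mut/HMGA2-OE, against 2.31 TPM in HMGA2-OE, and Tle6 was at 58.3 and 81.8 TPM in RUNX1mut/HMGA2-OE, against 13.1 TPM in HMGA2-OE. Tle3, Tle4 and Aes lay between -0.25 and 0.07 on the log2 scale, and Tle1 was at 8.46 and 8.02 TPM in RUNX1mut/HMGA2-OE, against 3.55 TPM in HMGA2-OE.

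Of the immune checkpoint genes, Cd274 (PD-L1) was at 20.7 and 18.9 TPM in RUNX1mut/HMGA2-OE, against 2.98 TPM in HMGA2-OE (2.25 ± 0.21), and its neighbour Pdcd1lg2 (PD-L2) was at 4.46 and 5.35 TPM in RUNX1mut/HMGA2-OE, against 0.288 TPM in HMGA2-OE. Lag3, an inhibitory receptor for MHC class II, was at 14.4 and 8.95 TPM in RUNX1mut/HMGA2-OE, against 1.64 TPM in HMGA2-OE, and the cytokine Tnfsf14 was at 19.4 and 25.3 TPM in RUNX1mut/HMGA2-OE, against 7.44 TPM in HMGA2-OE. Its receptor Tnfrsf14 went the other way, at 70.001 and 74.1 TPM in RUNX1mut/HMGA2-OE, against 153 TPM in HMGA2-OE (-1.23 ± 0.13). Cd80, Cd86 and Havcr2 were below 4 TPM in all 3 libraries and differed by between -0.07 and 0.38 on the log2 scale.

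Families that were lower lie in the red cell and in metabolism. The red cell membrane skeleton had 14 of 14 genes tested, 6 of them at least 2-fold lower and 0 higher, with a median of -1.08. The anchor Ank1 was at 14.9 and 17.1 TPM in RUNX1mut/HMGA2-OE, against 38.000 TPM in HMGA2-OE (-1.35 ± 0.18), and adducin beta, Add2, was at 16.5 and 18.8 TPM in RUNX1mut/HMGA2-OE, against 37.6 TPM in HMGA2-OE. Their forms that most cells make did not share this: Add1 was at 103 and 120.0 TPM in RUNX1mut/HMGA2-OE, against 95.8 TPM in HMGA2-OE, and Tmod3 was at 46.3 and 42.9 TPM in RUNX1mut/HMGA2-OE, against 40.4 TPM in HMGA2-OE. The metallothionein Mt2, which binds zinc, was at 111 and 93.1 TPM in RUNX1mut/HMGA2-OE, against 373 TPM in HMGA2-OE (-2.03 ± 0.17), and Mt1 was at 289.6 and 204 TPM in RUNX1mut/HMGA2-OE, against 469.9 TPM in HMGA2-OE. Among aldehyde dehydrogenases, the retinal-oxidizing Aldh1a1 was at 15.7 and 19.1 TPM in RUNX1mut/HMGA2-OE, against 69.7 TPM in HMGA2-OE (-2.10 ± 0.19), Aldh1a7 was at 2.54 and 5.93 TPM in RUNX1mut/HMGA2-OE, against 15.5 TPM in HMGA2-OE and Aldh3b1 was at 12.1 and 11.6 TPM in RUNX1mut/HMGA2-OE, against 25.6 TPM in HMGA2-OE. The mitochondrial Aldh2 was at 274 and 272 TPM in RUNX1mut/HMGA2-OE, against 333 TPM in HMGA2-OE, a smaller difference of -0.44 ± 0.11.

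**Figure D3:**
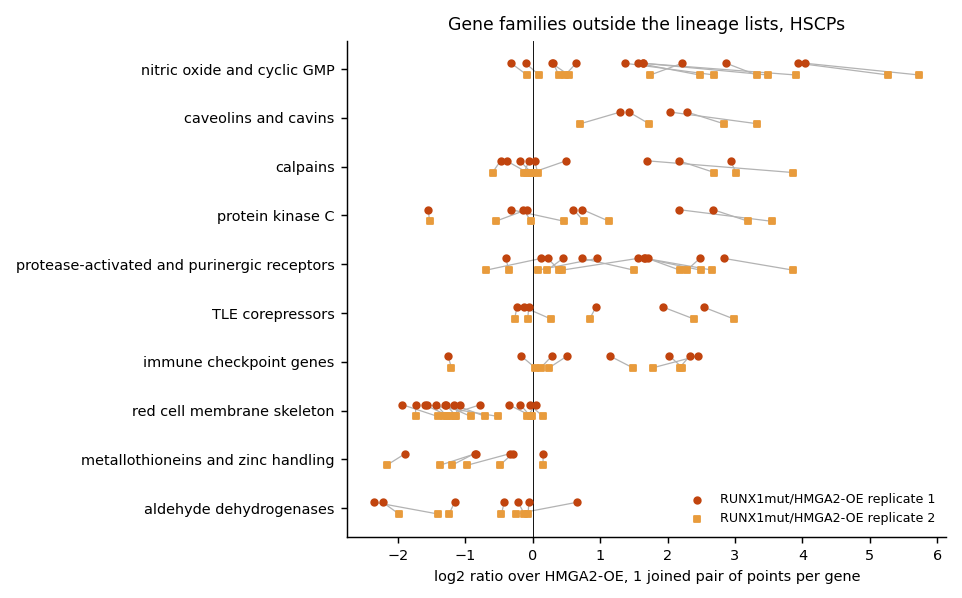
Log2 ratio to HMGA2-OE of every tested member of the 10 families, with replicate 1 of RUNX1mut/HMGA2-OE as circles and replicate 2 as squares, joined by a line for each gene. Members of the nitric oxide and cyclic GMP pathway reach past 5 in replicate 2, members of the red cell membrane skeleton lie mostly below 0, and calpains and protein kinase C spread to both sides.

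The 15 lowest genes by the same rule were led by Olfm4, a secreted glycoprotein of neutrophil granules, and Mecom, followed by Rps12 and Lmo1. Olfm4 was at 3.23 and 4.38 TPM in RUNX1mut/HMGA2-OE, against 125 TPM in HMGA2-OE (-4.87 ± 0.24). Mecom, a zinc finger factor of blood stem cells, was at 2.07 and 5.27 TPM in RUNX1mut/HMGA2-OE, against 132 TPM in HMGA2-OE (-5.07 ± 0.49). Lmo1, a LIM-only partner of blood transcription factors that is an oncogene in T cell leukaemia, was at 0.812 and 1.21 TPM in RUNX1mut/HMGA2-OE, against 16.6 TPM in HMGA2-OE (-3.26 ± 0.30). HMGA2-OE was far above both replicates for all 3. Stk39, a kinase of ion transporters, was at 1.41 and 0.753 TPM in RUNX1mut/HMGA2-OE, against 16.6 TPM in HMGA2-OE. Tnni3, the cardiac troponin I, was at 8.502 and 6.81 TPM in RUNX1mut/HMGA2-OE, against 74.4 TPM in HMGA2-OE (-3.28 ± 0.22), the matrix collagen Col5a1 was at 2.64 and 2.43 TPM in RUNX1mut/HMGA2-OE, against 22.5 TPM in HMGA2-OE, and Rec8, a cohesin subunit of meiosis, was at 4.86 and 2.42 TPM in RUNX1mut/HMGA2-OE, against 30.5 TPM in HMGA2-OE. The TGF-beta family ligand Gdf3 was at 5.53 and 6.05 TPM in RUNX1mut/HMGA2-OE, against 45.6 TPM in HMGA2-OE (-2.93 ± 0.19). Its relative Inhba, an activin subunit, was at 1.302 and 1.31 TPM in RUNX1mut/HMGA2-OE, against 10.2 TPM in HMGA2-OE, and was chosen after its values were seen. In all of these genes HMGA2-OE stood above both replicates.

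Rps12, a ribosomal protein gene, is listed at 7.52e-09 and 69.9 TPM in RUNX1mut/HMGA2-OE, against 1045 TPM in HMGA2-OE. Of 30 ribosomal protein genes tested from a list, 15 were higher and 15 lower, with a median of -0.01. Reads that near-identical copies of ribosomal protein genes share can be assigned to either, so this value is uncertain. Rps15a was likewise uneven, with 1669 TPM in replicate 1, 17261 in replicate 2 and 1399.7 in HMGA2-OE.

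Genes of neutrophil granules were lower as a group. The secondary and tertiary granule genes were lower for 19 of 19 tested, 17 of them at least 2-fold in both replicates, with a median of -2.05, and all 19 had an unadjusted limma p under 0.05. Their summed level was 4059 and 5088 TPM in RUNX1mut/HMGA2-OE, against 16479 TPM in HMGA2-OE. The mature neutrophil genes summed to 16488 and 15946 TPM in RUNX1mut/HMGA2-OE, against 53725 TPM in HMGA2-OE. Of 20 tested, 14 were lower, 8 of them at least 2-fold, and 6 were higher, 3 of them at least 2-fold. The 3 were Clec4d, Clec4e and Stfa3. Clec4d was at 14.6 and 14.5 TPM in RUNX1mut/HMGA2-OE, against 2.75 TPM in HMGA2-OE. Clec4e was at 13.4 and 16.1 TPM against 3.50 TPM, and Stfa3 at 8.32 and 3.47 TPM against 0.374 TPM. Ly6g, the antigen by which the series' mature cells were sorted, was at 7.28 and 16.8 TPM in RUNX1mut/HMGA2-OE, against 136 TPM in HMGA2-OE. S100a8 and S100a9 were the largest losses in TPM, with S100a8 at 11165 and 9687 TPM in RUNX1mut/HMGA2-OE, against 33943 TPM in HMGA2-OE. Erythroid genes summed to 2278 and 4085 TPM in RUNX1mut/HMGA2-OE, against 4549.7 TPM in HMGA2-OE, with 22 of 22 lower and a median of -0.96. The part of these other marrow cells in the differences of single genes was not tested. The primary granule genes, made earlier in the lineage, depended on the library, with a median of -0.03 in replicate 1 and -1.05 in replicate 2.

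Stem and progenitor genes lay on the higher side. Of 21 stem cell transcription factors tested, 18 were higher, 7 of them at least 2-fold, and Mecom alone was at least 2-fold lower, with a median of 0.77. Meis1, a cofactor of HOX proteins, was at 67.2 and 93.2 TPM in RUNX1mut/HMGA2-OE, against 11.3 TPM in HMGA2-OE, and Hlf, a factor of dormant stem cells, was at 31.9 and 20.5 TPM in RUNX1mut/HMGA2-OE, against 4.48 TPM in HMGA2-OE. Nkx2-3, a homeobox factor, was at 6.44 and 3.45 TPM in RUNX1mut/HMGA2-OE, against 0.338 TPM in HMGA2-OE. The HOX genes themselves did not share this: 0 of 8 tested were 2-fold either way, and their median was 0.43 in replicate 1 and -0.06 in replicate 2. Prdm16, a relative of Mecom, was at 2.98 and 2.34 TPM in RUNX1mut/HMGA2-OE, against 5.86 TPM in HMGA2-OE, on the same side as Mecom. Of 20 surface markers tested, 9 were at least 2-fold higher and 0 lower. Thy1, of the same list, was not tested because it reached 1 TPM in HMGA2-OE alone, with 0.374 and 0.248 TPM in RUNX1mut/HMGA2-OE, against 5.21 TPM in HMGA2-OE. Procr, the protein C receptor, was at 8.77 and 6.39 TPM in RUNX1mut/HMGA2-OE, against 0.901 TPM in HMGA2-OE, and Cd27, a receptor of the TNF family, was at 72.1 and 37.7 TPM in RUNX1mut/HMGA2-OE, against 13.8 TPM in HMGA2-OE. Ly6a, which encodes Sca-1, stood on the other side, at 20.7 and 9.74 TPM in RUNX1mut/HMGA2-OE, against 31.2 TPM in HMGA2-OE.

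All 27 tested genes of the megakaryocyte and platelet list were higher, 16 of them at least 2-fold, with a median of 1.67 in replicate 1 and 2.67 in replicate 2. Their summed level was 2126 and 4939.6 TPM in RUNX1mut/HMGA2-OE, against 892 TPM in HMGA2-OE. Clec1b, the podoplanin receptor of platelets, was at 34.8 and 181 TPM in RUNX1mut/HMGA2-OE, against 4.63 TPM in HMGA2-OE, and Plek, a kinase substrate, was at 173 and 516 TPM in RUNX1mut/HMGA2-OE, against 23.97 TPM in HMGA2-OE. Replicate 2 was the higher for both. Tek, the receptor for angiopoietin, was at 15.5 and 35.9 TPM in RUNX1mut/HMGA2-OE, against 4.16 TPM in HMGA2-OE. The list held 16 of the 504 genes that were 2-fold higher.

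Among cytokine receptors, 27 of 36 tested were higher and 5 at least 2-fold, with 2 at least 2-fold lower. Il10ra was at 8.93 and 14.5 TPM in RUNX1mut/HMGA2-OE, against 2.395 TPM in HMGA2-OE, Tgfbr2 was at 26.9 and 23.1 TPM in RUNX1mut/HMGA2-OE, against 6.85 TPM in HMGA2-OE and Il1rl1, the receptor of IL-33, was at 16.4 and 16.5 TPM in RUNX1mut/HMGA2-OE, against 5.22 TPM in HMGA2-OE. On the lower side were the erythropoietin receptor Epor, at 25.7 and 34.04 TPM in RUNX1mut/HMGA2-OE, against 62.7 TPM in HMGA2-OE, and the TGF-beta co-receptor Tgfbr3, at 4.81 and 4.33 TPM in RUNX1mut/HMGA2-OE, against 9.77 TPM in HMGA2-OE. Downstream of cytokine receptors, Jak3 was at 83.2 and 75.3 TPM in RUNX1mut/HMGA2-OE, against 29.7 TPM in HMGA2-OE (1.23 ± 0.15), and the feedback inhibitor Socs3 was at 15.6 and 8.55 TPM in RUNX1mut/HMGA2-OE, against 1.71 TPM in HMGA2-OE. Of 19 STAT and SOCS genes, 17 were higher and 2 reached 2-fold.

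Gimap and antigen presentation genes were higher as lists. The lymphocyte lists had 0 tested genes at 2-fold. Early B lymphoid genes had 14 of 18 higher and a median of 0.18. Of 18 T and NK cell genes 6 were tested, 3 higher and 3 lower. Gzma, a list member, was not tested because it reached 1 TPM in HMGA2-OE alone. It was at 0.266 and 0 TPM in RUNX1mut/HMGA2-OE, against 4.33 TPM in HMGA2-OE. The Gimap GTPases, which support lymphocyte survival, were higher for 7 of 7 tested and 6 reached 2-fold. Gimap1 was at 102 and 94.4 TPM in RUNX1mut/HMGA2-OE, against 24.9 TPM in HMGA2-OE, and Gimap6 was at 69.9 and 67.3 TPM in RUNX1mut/HMGA2-OE, against 17.4 TPM in HMGA2-OE. MHC class II genes were higher for 10 of 10, 5 at least 2-fold, with a median of 1.31. H2-Ob, a modulator of peptide loading, was at 29.4 and 33.7 TPM in RUNX1mut/HMGA2-OE, against 4.05 TPM in HMGA2-OE (2.55 ± 0.19), a larger difference than the 1.55 ± 0.14 of the structural chain H2-Aa. MHC class I and peptide loading genes were higher for 16 of 16 and 0 reached 2-fold, with H2-K1 at 1156 and 1422 TPM in RUNX1mut/HMGA2-OE, against 712 TPM in HMGA2-OE. Interferon response genes were split, with 21 of 32 higher and 11 lower and a median of 0.08. Of these, 1 gene reached 2-fold, the GTPase Gbp2, at 11.8 and 15.7 TPM in RUNX1mut/HMGA2-OE, against 4.82 TPM in HMGA2-OE.

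Signalling below immune receptors had 21 of 28 genes higher, 3 of them at least 2-fold, against 4.12% of all genes. The adaptor Lat was at 45.9 and 108 TPM in RUNX1mut/HMGA2-OE, against 7.03 TPM in HMGA2-OE, and its partner Lcp2 (SLP-76) was at 48.97 and 64.5 TPM in RUNX1mut/HMGA2-OE, against 21.3 TPM in HMGA2-OE. The neutrophil kinase Fgr stood on the other side, at 8.01 and 6.29 TPM in RUNX1mut/HMGA2-OE, against 20.1 TPM in HMGA2-OE. In the NF-kB list 14 of 22 were higher, 3 of them at least 2-fold, and 1 was at least 2-fold lower. Traf1 was at 7.86 and 10.7 TPM in RUNX1mut/HMGA2-OE, against 0.155 TPM in HMGA2-OE. The nuclear co-factor Bcl3 was at 25.8 and 22.9 TPM in RUNX1mut/HMGA2-OE, against 9.13 TPM in HMGA2-OE. Tnfaip2 was the lower gene, at 64.8 and 90.6 TPM in RUNX1mut/HMGA2-OE, against 186 TPM in HMGA2-OE. Lipid mediator genes had 5 of 24 at least 2-fold higher. They included the platelet lipoxygenase Alox12, at 8.53 and 21.3 TPM in RUNX1mut/HMGA2-OE, against 0.564 TPM in HMGA2-OE, the prostaglandin receptor Ptger3, at 11.6 and 16.03 TPM in RUNX1mut/HMGA2-OE, against 1.75 TPM in HMGA2-OE, and the sphingosine phosphate receptor S1pr1, at 10.1 and 15.5 TPM in RUNX1mut/HMGA2-OE, against 1.07 TPM in HMGA2-OE.

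Genes for growth and metabolism differed by less per gene. Mitosis genes were lower for 25 of 25 tested, with a median of -0.40 and 0 at 2-fold. The proliferation antigen Mki67 was at 71.5 and 70.2 TPM in RUNX1mut/HMGA2-OE, against 112 TPM in HMGA2-OE (-0.80 ± 0.13). DNA replication genes were lower for 30 of 33, with Rrm2, a ribonucleotide reductase subunit, at 135 and 136 TPM in RUNX1mut/HMGA2-OE, against 197 TPM in HMGA2-OE. Heme and iron genes were lower for 20 of 20, and the last enzyme of heme synthesis, Fech, was at 34.4 and 35.6 TPM in RUNX1mut/HMGA2-OE, against 67.5 TPM in HMGA2-OE. Antioxidant and glutathione genes were lower for 27 of 28, with a median of -0.44. Nqo1, a quinone reductase, was at 4.69 and 7.49 TPM in RUNX1mut/HMGA2-OE, against 18.4 TPM in HMGA2-OE, and Mgst2 was at 42.96 and 31.6 TPM in RUNX1mut/HMGA2-OE, against 95.7 TPM in HMGA2-OE. Asparagine synthetase, Asns, was at 15.02 and 8.58 TPM in RUNX1mut/HMGA2-OE, against 67.6 TPM in HMGA2-OE (-2.62 ± 0.38), while 1 other gene of the 20 for amino acid supply and ATF4 targets reached 2-fold, the transporter Slc7a8, at 13.6 and 10.2 TPM in RUNX1mut/HMGA2-OE, against 3.68 TPM in HMGA2-OE.

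Some groups showed no difference of 2-fold in any member. These were nuclear genes of the respiratory chain (25 tested), proteasome subunits (24), splicing factors (27), ribosome biogenesis (24), cytosolic ribosomal proteins (30, a list without Rps12), DNA repair (28), lysosome and V-ATPase (28), cholesterol and fatty acid synthesis (24) and orthologs of myeloid neoplasm drivers (31). Their medians lay between -0.27 and 0.00. Members were lower for 24 of 25 in the respiratory chain, 23 of 24 each in the proteasome and ribosome biogenesis lists and 24 of 28 in DNA repair. Splicing factors had 21 of 27 lower, lysosome genes 18 of 28 and driver orthologs 19 of 31, while the ribosomal protein and cholesterol lists were split evenly. The counts of lower mitosis, replication and antioxidant genes are to be read beside these. Without scaling, which moved the median of all genes to 0.14, the medians of 7 of these groups were above 0, the ribosome biogenesis and DNA repair lists being the exceptions. No member of any of the 62 lists passed the adjusted threshold in limma.

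**Figure D4:**
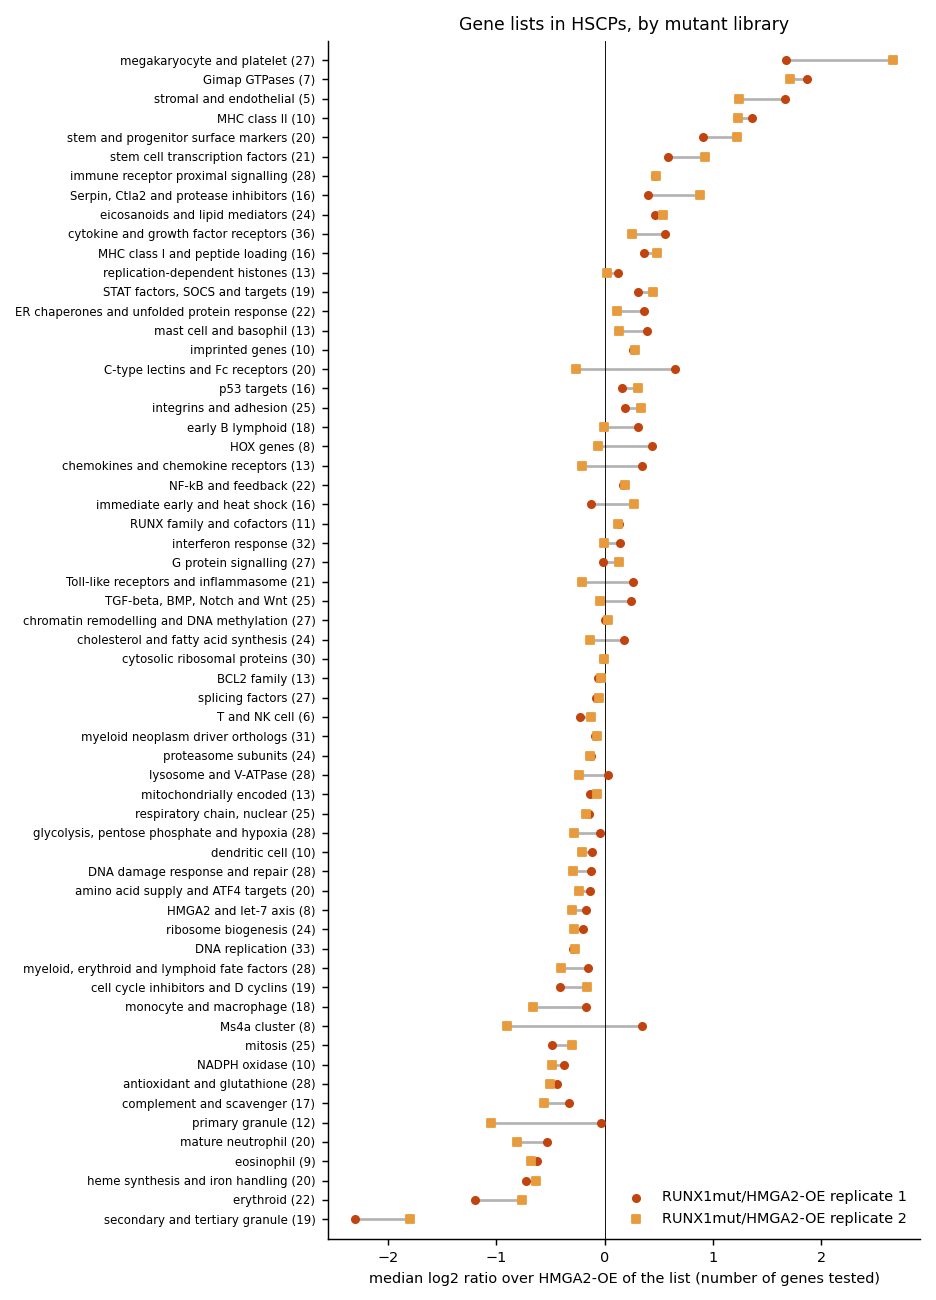
Median log2 ratio to HMGA2-OE of each list with at least 5 tested genes, in RUNX1mut/HMGA2-OE replicate 1 (circles) and replicate 2 (squares), with the number of tested genes in brackets. Megakaryocyte and platelet genes are at the top with 1.67 and 2.67, secondary and tertiary granule genes are at the bottom, and primary granule and Ms4a genes differ most between replicates.

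The RUNX1mut/HMGA2-OE libraries also differed from each other. Replicate 1 was at least 2-fold above replicate 2 for 286 genes, and replicate 2 above replicate 1 for 292. Fcer1a, the IgE receptor alpha chain of mast cells and basophils, had 0.287 TPM in replicate 1, 46.03 in replicate 2 and 1.63 in HMGA2-OE. Dok2, an adaptor that restrains kinase signalling, had 29.2 TPM in replicate 1, 514 in replicate 2 and 20.3 in HMGA2-OE, and Tmem246 had 186 TPM in replicate 1, 7.28 in replicate 2 and 1.73 in HMGA2-OE. In Npy, which encodes neuropeptide Y, replicate 1 was the low library, with 0.5299 TPM in replicate 1, 42.05 in replicate 2 and 30.9 in HMGA2-OE. Lhfp, Ackr1, Cacna1a and Myl4 were high in replicate 2 alone, at 29.6 to 73.0 TPM, with at most 3.42 TPM in the other libraries. Differences of these genes from HMGA2-OE depend on the replicate, and their SE on the log2 scale was between 1.73 and 2.34.

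Ly6G+ cells were described alongside, in 4 libraries that share none with the HSCPs comparison. The labels do not say whether both cell types came from the same mice, so the comparisons cannot be taken as independent. Of the 504 genes higher in HSCPs, 213 had at least 1 TPM in 2 of those 4 libraries. Of these, 43 (20.2%) were at least 2-fold higher in RUNX1mut/HMGA2-OE over HMGA2-OE Ly6G+ cells and 14 (6.57%) lower, and 56 (26.3%) were higher in RUNX1mut over Control and 14 (6.57%) lower. Both Ly6G+ pairs were 2-fold higher for 29 of the 213 (13.6%) and 2-fold lower for 3 (1.41%). Over the 9305 HSCPs genes with a Ly6G+ value, both pairs were higher for 121 (1.3%) and lower for 80 (0.86%). Of the 280 genes lower in HSCPs, 182 had a value, and both pairs were lower for 12 (6.59%) and higher for 5 (2.75%). There is 1 library per Ly6G+ group, so these counts carry no test. The filter also bears on the shares. A gene under 1 TPM in both HMGA2-OE and Control Ly6G+ cells, such as Cpa3 or Itga2b, has a value only when both mutant libraries reach 1 TPM. These shares, also those without scaling below, therefore do not measure how far the cell types agree.

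The scaling of the Ly6G+ libraries bears on these counts. Without it, the median log2 ratio of their 9820 genes was 1.02 for RUNX1mut/HMGA2-OE over HMGA2-OE and 0.14 for RUNX1mut over Control. All 29 higher genes were then still at least 2-fold higher in both pairs, among 52, against 4.84% over all genes. Of the 12 lower genes, Il1r2 and Lmo1 were still 2-fold lower in both, against 0.279% over all genes. Leaving scaling out moves the ratios of both pairs upward, so higher genes tend to stay and lower genes tend to drop out. These counts are therefore no check on either set. S100a8 alone was listed at 30622 TPM in RUNX1mut/HMGA2-OE Ly6G+ cells against 546267 in HMGA2-OE, and 398580 in RUNX1mut against 439280 in Control. Its part in the unscaled medians was not tested. Ly6G+ TPM values that follow are as deposited, without scaling.

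The 29 genes included Cpa3, Itga2b, Treml1, Runx3, Runx1, Fgf3, Cd180, S1pr1, Cd34, Serpina3g, Gimap6, Gimap9, Tmem176a, Tmem176b, F2r, Hpgds and the MHC class II genes H2-Eb1, H2-Ab1, H2-Aa and Cd74. Cpa3 was at 8.24 TPM in RUNX1mut/HMGA2-OE Ly6G+ cells against 0.5496 in HMGA2-OE, and 8.51 in RUNX1mut against 0.832 in Control. Serpina3g was at 16.1 TPM in RUNX1mut/HMGA2-OE Ly6G+ cells against 1.21 in HMGA2-OE, and 17.2 in RUNX1mut against 0.753 in Control. Fgf3, a fibroblast growth factor at 64.2 and 107 TPM in RUNX1mut/HMGA2-OE HSCPs and 6.16 TPM in HMGA2-OE HSCPs, was at 3.31 TPM in RUNX1mut/HMGA2-OE Ly6G+ cells against 0.132 in HMGA2-OE, and 2.24 in RUNX1mut against 0 in Control. In each case both mutant Ly6G+ libraries were above both others. Progenitor markers moved with these genes in Ly6G+ cells. Mpo was at 228 TPM in RUNX1mut/HMGA2-OE Ly6G+ cells against 53.2 in HMGA2-OE, and 235 in RUNX1mut against 28.4 in Control. Cd48 was at 20.9 TPM in RUNX1mut/HMGA2-OE Ly6G+ cells against 5.297 in HMGA2-OE, and 14.3 in RUNX1mut against 2.85 in Control. Gata2 was at 2.69 TPM in RUNX1mut/HMGA2-OE Ly6G+ cells against 0.269 in HMGA2-OE, and 2.27 in RUNX1mut against 0.1697 in Control. Kit did not, at 4.43 TPM in RUNX1mut/HMGA2-OE Ly6G+ cells against 3.43 in HMGA2-OE, and 3.72 in RUNX1mut against 5.202 in Control. The part of immature cells in the Ly6G+ values was not tested. Lmo1 was at 0.407 TPM in RUNX1mut/HMGA2-OE Ly6G+ cells against 6.24 in HMGA2-OE, and 3.02 in RUNX1mut against 17.1 in Control, so it was lower with the mutation in all 3 comparisons. Asns was at 35.7 TPM in RUNX1mut/HMGA2-OE Ly6G+ cells against 35.4 in HMGA2-OE, and 8.15 in RUNX1mut against 31.6 in Control, and only the second of these pairs differed in the deposited TPM. Mecom was at most 0.216 TPM in the 4 Ly6G+ libraries. Olfm4, far lower in RUNX1mut/HMGA2-OE HSCPs, was at 129.5 TPM in RUNX1mut/HMGA2-OE Ly6G+ cells against 21.8 in HMGA2-OE, and 53.4 in RUNX1mut against 62.3 in Control, and thus went the other way in the first pair.

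**Figure D5:**
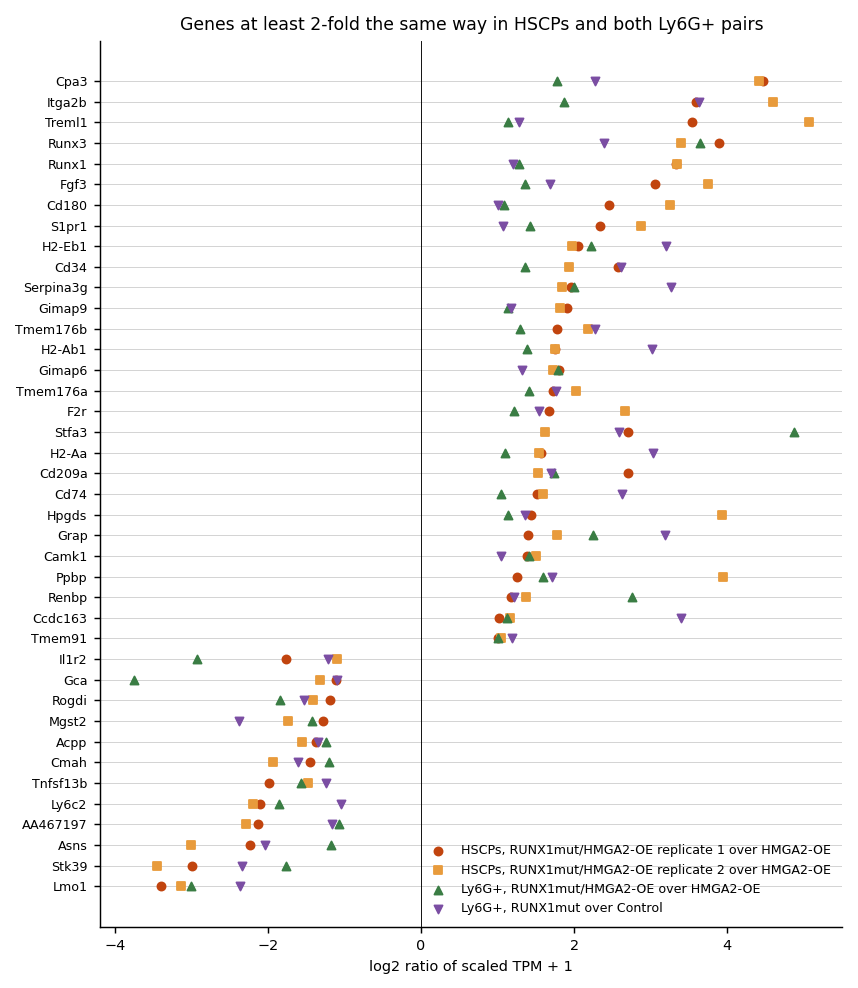
Log2 ratios of the 41 genes that passed 2-fold on one side in HSCPs and in both Ly6G+ pairs, with HSCPs replicate 1 as circles, HSCPs replicate 2 as squares, RUNX1mut/HMGA2-OE over HMGA2-OE Ly6G+ as upward triangles and RUNX1mut over Control Ly6G+ as downward triangles, after scaling. Higher genes are above and the 12 lower genes below, 1 of the 41 is not shown, and Cpa3 has the highest HSCPs ratios of the set when the lower replicate is counted.

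Whether the difference in HSCPs was that in Ly6G+ cells was tested with an interaction term in the 5 HMGA2-OE libraries. In limma, 0 of 12686 genes passed after Benjamini-Hochberg adjustment (0%), with a smallest adjusted p of 0.122, and 2297 genes had an unadjusted p under 0.05 (18.1%). The test again had 1 residual degree of freedom. The 2-fold rule has an edge, and values near it do not set genes apart: Zfp275 was counted with log2 ratios of 1.005 and 1.09, whereas Ptpre was not, with 1.09 and 0.992.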

How the data were processed

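RNA was sequenced from c-Kit selected, sorted bone marrow progenitors (HSCPs) and from Ly6G+ marrow cells of C57BL/6 mice, and groups were taken from the sample labels. Reads were converted with bcl2fastq and CASAVA 1.8 and quantified with kallisto, with mm10 as genome build, per the submitters' processing notes. The kallisto version, its index and the annotation are not stated in the labels or files. The authors deposited 1 table that its name calls counts, but its values are TPM by their size and column sums, so no count test was used and depth is unknown. That the unit was read from the values is a limit on all results.

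TPM of the 3 HSCPs libraries were brought to 1 scale through the trimmed mean, without weights, of their log ratios (0.3 of ratios and 0.05 of levels trimmed; factors 1.03, 1.05 and 0.929) and fitted as log2(scaled TPM + 1) with limma 3.58.1 in R 4.3.3, with a variance trend and Benjamini-Hochberg adjustment at 0.05. Genes with at least 1 TPM in 2 of the 3 libraries were tested, and the other 16761 genes listed were not. The scripts were tested on simulated data. The labels call the mice individuals, and nothing further separates biological from technical spread. Replicate numbers pair no groups, since HMGA2-OE has 1 library. Gene positions come from GENCODE M21, which held 27458 of the 28987 identifiers. Figures were drawn with matplotlib 3.10.9.

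The members, gene lists and families were chosen with earlier results of these data known. Named genes are Runx1, Runx2, Runx3 and Hmga2, then, among named protein-coding genes reaching 10 TPM, the 15 highest and 15 lowest by the smaller ratio, the 10 with the smallest p each way, the 10 largest gains and losses of TPM, genes under 0.1 TPM in 1 genotype and at 5 TPM or more in the other, the 10 whose replicates differ most, and up to 4 list members each way. Members of the 10 families and any other gene were chosen after their values were seen. A few genes are not reported here by name but were kept in all fits and counts. Alternatives covered pseudocount, filter, scaling, variance trend, the libraries fitted, each replicate left out and transcript length. TPM of short transcripts depends on the fragment length that the quantification assumes, so genes with 300 to 500 nt transcripts were left out in 1 alternative.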

Additional observations from a re-analysis of the deposited data

How the results depend on the processing

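The count of genes past the adjusted threshold in limma, 0, became 1 (Cpa3, adjusted p = 0.0439) without scaling, and the smallest adjusted p lay between 0.0439 and 0.376 over all settings. The 504 genes 2-fold higher in both replicates became 321 with all 7 libraries fitted and scaled together, 185 with a pseudocount of 5 TPM and 292 without genes that have a 300 to 500 nt transcript, and leaving out 1 replicate gave 684 to 882. The 280 lower genes became 166 with a filter of 5 TPM, 421 with no filter, 160 with a pseudocount of 5 TPM and 153 without the 300 to 500 nt transcripts, and leaving out 1 replicate gave 450 to 556. Fewer genes are tested without the short transcripts or with the 5 TPM filter, more with no filter, and fewer libraries must agree when a replicate is left out. The 1879 genes at an unadjusted p under 0.05 became 953 without the 300 to 500 nt genes, which are 46.4% of the genes tested. Of the genes higher or lower in HSCPs, those 2-fold the same way in both Ly6G+ pairs went to 52 and 2 without scaling of the Ly6G+ libraries, an alternative chosen after seeing the data, against 29 and 12 with it. Ratios of both pairs move upward without scaling, so this alternative checks neither count. Of 1576 values for single genes, 8 changed sign. Most of these genes were named for ratios on the same side in both replicates or for a small p. Few of them could therefore change sign, and the count is no measure of stability. Hmga2 was at 0.0855 without scaling. With 1 replicate left out, the log2 difference lay between -0.26 and 0.12 for Hmga2, -1.095 and 4.02 for Fcer1a, -4.47 and 0.27 for Npy, -0.30 and 3.91 for Ackr1, -0.21 and 3.86 for Cacna1a, -3.27 and 0.76 for Myl10 and -1.01 and 2.76 for Myl4. List medians moved by more than the spread between replicates in 149 of 610 values. No paired analysis was possible because HMGA2-OE has 1 HSCPs library and no replicate number. With 1 HMGA2-OE library, what is particular to that library and what goes with the RUNX1 mutation cannot be told apart.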

Other observations

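Neighbouring genes stood together at several places (mm10). On chromosome 6, the Gimap genes Gimap8, Gimap9, Gimap4, Gimap6, Gimap1 and Gimap5 between 48647234 and 48754210 were all at least 2-fold higher in both RUNX1mut/HMGA2-OE libraries. On chromosome 17, H2-Ob, H2-Ab1, H2-Aa and H2-Eb1 between 34238903 and 34316674 were higher, and on chromosome 19 so were Insl6, Plgrkt, Cd274 and Pdcd1lg2 between 29321344 and 29471161. On chromosome 9, Esam, Vsig2 and Nrgn lay between 37528078 and 37552904. The 1 such run among lower genes was Pilra, Pilrb1 and Pilrb2 on chromosome 5, between 137821952 and 137871815. Chromosome 6, picked after the values were seen, had the largest share of 2-fold higher genes, 45 of 606 (7.43%), against 4.12% over all genes. The Gimap genes above are among them. Its share of 2-fold lower genes was 3.30%, against 2.29% over all genes.

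Imprinted genes were uneven. Zrsr1, a paternally expressed splicing factor gene that arose by retroposition from Zrsr2, was at 744 and 763 TPM in RUNX1mut/HMGA2-OE, against 255 TPM in HMGA2-OE (1.40 ± 0.11), and Zrsr2 was at 45.2 and 44.5 TPM in RUNX1mut/HMGA2-OE, against 25.9 TPM in HMGA2-OE. Copies this alike can share reads. Igf2r, a maternally expressed receptor, was at 1.42 and 2.05 TPM in RUNX1mut/HMGA2-OE, against 7.4001 TPM in HMGA2-OE, and Grb10 was at 3.47 and 3.37 TPM in RUNX1mut/HMGA2-OE, against 9.52 TPM in HMGA2-OE.

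Genes grouped by symbol stem or gene type are given beside the shares over all genes, 4.12% at least 2-fold higher and 2.29% lower. Zinc finger genes named Zfp had a median log2 difference of 0.17 over 308 tested. Of these, 6 were at least 2-fold higher, a smaller share than over all genes, and 0 lower. The 26 kinesins named Kif had a median of -0.30 and 0 at 2-fold. Antisense genes had 19 of 259 higher and 3 lower, and processed pseudogenes had 25 of 216 higher and 8 lower. The higher shares exceed 4.12%, but genes at low TPM passed 2-fold more often, and the filter admitted genes under 1 TPM in HMGA2-OE. The part of level and filter in these counts was not tested. Whether counting used strand is not given in the sources used here, so reads of a gene and its antisense partner cannot be told apart.

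The largest ratios of all belonged to clone-named genes, which were chosen after their values were seen. Gm13092 was at 1069 and 455 TPM in RUNX1mut/HMGA2-OE and is listed at 0 in HMGA2-OE, and Gm10772 was at 895 and 332 TPM and is likewise listed at 0. Gm12918 went the other way, at 5.74 and 124 TPM in RUNX1mut/HMGA2-OE, against 359 TPM in HMGA2-OE. Clec2f was at 1.37 and 7.36 TPM in RUNX1mut/HMGA2-OE, against 82.4 TPM in HMGA2-OE. An exact 0 in such a file can be a failed estimate.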
